A study of Mus musculus with 6 samples.

Results

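The Toll-like receptors were described in cultured mouse bone marrow mesenchymal stromal cells (BMSCs) with and without retinoic acid (RA). The members were the rows of the count files whose gene name was Tlr1, Tlr2, Tlr3, Tlr4, Tlr5, Tlr6, Tlr7, Tlr8, Tlr9 or Tlr13, which are 10 of the 25722 genes in the files. Each had 1 row in every file, and all 10 were among the 13842 genes tested. The cells were adherent marrow cells of wild-type C57BL/6 mice, used at early passage, and had been grown in 5% oxygen with serum and a ROCK inhibitor. The 3 control libraries were from cells given the solvent DMSO, and the 3 RA libraries were from cells given 1 µM all-trans RA for 48 h according to the labels. The study's methods state a lower dose and a shorter time for this experiment, so the dose and time given here are those of the labels alone. The design text speaks of 2 biological replicates, while 3 libraries per group were analysed. No source says whether the 3 came from separate animals or cultures, so the p-values measure the spread between libraries, which may be technical.

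Toll-like receptors are membrane proteins that bind microbial molecules outside the cytosol and start the inflammatory and interferon responses of innate immune cells. One branch sits at the cell surface and reads lipoproteins, lipopolysaccharide and flagellin. The other is carried to endosomes, where it reads nucleic acids. Nearly all of them signal through the adaptor Myd88, and macrophages are known for expressing many of them, while stromal cells express a smaller selection.

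The 6 libraries held 14737636 to 18511905 counted reads each. A principal component analysis of log2 CPM, over the 1000 genes that varied most, placed the libraries in sets that crossed the treatment. Its leading axis held 57.2% of the variance of those genes. Library set 1 was DMSO 2, RA 1 and RA 2, and set 2 was DMSO 1, DMSO 3 and RA 3. The labels give no reason for the split. Comparisons of the sets are therefore descriptions with no test, and a fit with the set as a term rests on groups that were read from these data. The cells carried markers of macrophages as well as of stroma, with the macrophage markers at the higher summed level. All 14 macrophage markers were tested, and their summed level was 21291 to 23457 CPM (counts scaled to the library's effective size, per 1000000 reads) in DMSO and 20571 to 22068 CPM in RA, with Lyz2 the highest by mean CPM and Mertk the lowest. The 12 stromal markers summed to 2222 to 4061 CPM in DMSO and 1683 to 3177 CPM in RA, with Col1a1 highest and Thy1, a defining marker below the filter, lowest at up to 0.490 CPM. By mean CPM over the 6 libraries, Col1a1 stood at 878, Col1a2 at 776, Cxcl12 at 463 and Cd44 at 276. Pdgfrb, Eng, Vcam1 and Ly6a lay between 27.7 and 94.6 CPM. Pdgfra stood at 15.8 CPM, Lepr at 2.75 CPM and Nt5e, also below the filter, at 0.601 CPM. Of the other lists, B cell markers summed to at most 5.53 CPM, T and NK cell markers to at most 3.23 CPM, neutrophil markers to at most 4.25 CPM and endothelial markers to at most 16.9 CPM. The highest of these by mean CPM were Cd79b, Cd4, S100a8 and Pecam1, and the lowest were Ms4a1, Cd3e, S100a9 and Emcn, with Ms4a1 at 0 in all 3 RA libraries and Cd8a at 0 in all 3 DMSO libraries. The plasmacytoid dendritic cell list reached 423 CPM, almost wholly from Bst2 and Tcf4, which other cells also express, while Ccr9 stayed at or below 0.697 CPM. The level of a receptor in such a mixture does not tell which cell made it, and fewer cells of a type cannot be told apart from less RNA per cell.

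Per unit of length, Tlr2 and Tlr1 were the most abundant receptors and Tlr5 the least. The level was expressed as CPM per kilobase of the gene's summed exons (CPM per kb) over the 6 libraries, with the SD between libraries. Tlr2, which pairs with Tlr1 or Tlr6 to bind bacterial lipoproteins, stood at 53.4 ± 3.74 CPM per kb and Tlr1 at 50.01 ± 9.45 CPM per kb. These levels did not differ beyond their spread, since Tlr2 was the higher in only 2 of the 6 libraries. The next 3 were all endosomal: Tlr8 at 26.8 ± 8.39 CPM per kb, Tlr13 at 23.4 ± 6.18 CPM per kb and Tlr7 at 21.3 ± 10.7 CPM per kb. Their ranges overlapped, although Tlr8 was above Tlr13 in 6 of 6 libraries and Tlr13 was above Tlr7 in only 3 of 6.

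Tlr4, the receptor for lipopolysaccharide, followed at 10.4 ± 1.98 CPM per kb, and Tlr9, which reads unmethylated CpG DNA, at 8.13 ± 5.79 CPM per kb. They changed order between libraries, with Tlr4 the higher in 3 of 6. Tlr6 stood at 4.64 ± 0.418 CPM per kb and Tlr3, the receptor for double-stranded RNA, at 3.74 ± 0.926 CPM per kb. Tlr6 was above Tlr3 in 5 of 6 libraries. Only the step from Tlr3 to Tlr5, the flagellin receptor, left the ranges of neighbours apart, with Tlr5 at 0.225 ± 0.0803 CPM per kb. In terms of all tested genes ranked by CPM per kb, Tlr2 lay at the 93.9th percentile and Tlr5 at the 4.26th. Of the receptors that are not members, Tlr12 had 0 to 2 counts per library, under the limit of 3 counts that a count of 0 allows, and Tlr11 was not analysed here.

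**Figure D1:**
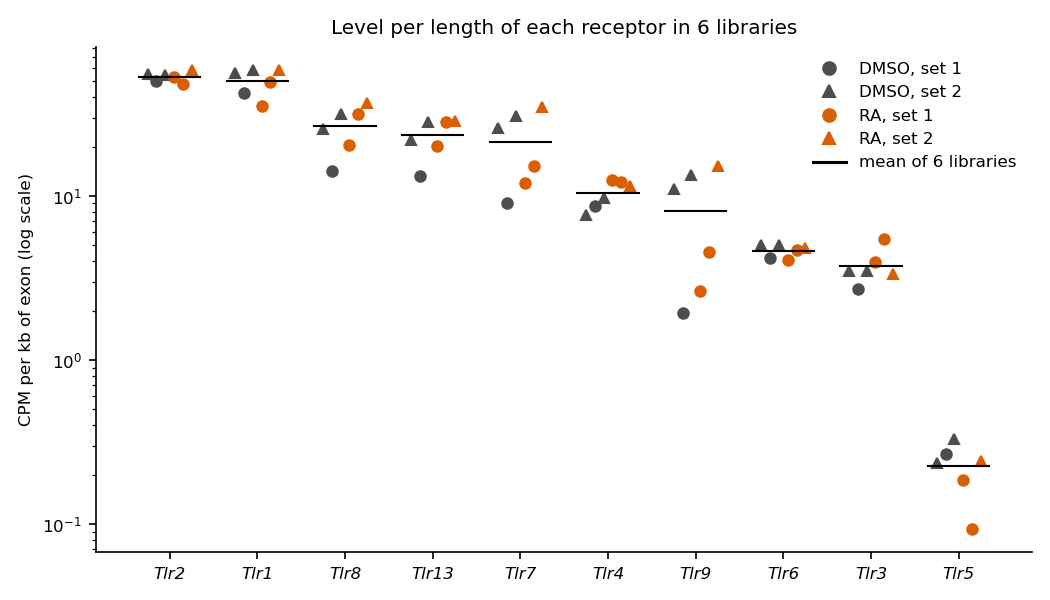
CPM per kb of exon (log axis) of each receptor, ordered by its mean over the 6 libraries (black line), with 1 point per library, coloured by treatment and shaped by library set. Tlr2 and Tlr1 lie near 50 CPM per kb, Tlr5 lies below all the others in every library, and the points of Tlr7 and Tlr9 divide by library set.

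Some members are neighbours in the genome. Tlr1 (chr5:64924679-64933563) and Tlr6 (chr5:64952031-64960097) lie on the minus strand 18467 bases apart, with no other gene of the files between them, by the GENCODE M21 annotation of GRCm38. Tlr1 stood 8.70 to 12.1 times above Tlr6 in CPM per kb over the 6 libraries. Their transcripts shared 454 stretches of 50 bases, which made up 13.6% of those in Tlr1 and 12.3% of those in Tlr6, so that reads from these stretches could have been given to either gene or to neither. No other pair among the 45 pairs of members shared such a stretch. Tlr8 (chrX:167242696-167264329) and Tlr7 (chrX:167304929-167330558) are also minus-strand neighbours, 40599 bases apart. The ratio of Tlr8 to Tlr7 in CPM per kb was 0.984 to 1.06 in set 2 and 1.57 to 2.09 in set 1, with no overlap between the sets.

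RA treatment was compared with DMSO over all 13842 genes with edgeR's quasi-likelihood test, and calls required both a 1.5-fold change and, after Benjamini-Hochberg adjustment over all genes, a p under 0.05. No receptor was called, in either direction. The background was low as well, since 6 genes, or 0.0433% of those tested, were called in all. At an unadjusted p under 0.05, 1 receptor passed by edgeR, Tlr4, against 5.25% of all genes. With DESeq2 no receptor was called either, although that tool called 136 genes. The median log2 fold change of the 10 receptors was -0.04, beside -0.02 for all genes tested. In a fit that has the set as a term, the receptors had a median of 0.40, beside -0.0041 for all genes. Leaving out 1 library at a time, that median ran from 0.14 without DMSO replicate 2 to 0.54 without RA replicate 3. In the fit without the set it ran from -0.10 without RA replicate 3 to 0.22 without DMSO replicate 3. All 3 RA libraries lay above all 3 DMSO libraries for 1 receptor, Tlr4, against 5.71% of all genes, and below them for 0 receptors, against 6.87% of all genes. Among 10 members, 1 is close to these shares.

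Tlr4 (chr4:66827584-66930284, plus strand) was thus the member with the clearest separation by treatment. Its level was 42.4, 48.2 and 54.3 CPM in DMSO 1, 2 and 3, and 69.3, 67.7 and 63.8 CPM in RA 1, 2 and 3. Every RA library was above every DMSO library, whichever set it belonged to. The means were 48.3 ± 5.91 CPM (SD, n = 3) and 66.9 ± 2.82 CPM (SD, n = 3), a log2 fold change of 0.47 with an SE of 0.13. By edgeR's quasi-likelihood test the unadjusted p was 0.0079 and the Benjamini-Hochberg adjusted p was 0.602, so the difference did not pass across all genes. The log2 difference was 0.51 within set 1 and 0.41 within set 2. With the set as a covariate it was 0.45 with an SE of 0.11, and the edgeR adjusted p was 0.122. Leaving out 1 library at a time gave log2 fold changes from 0.38 to 0.56 in the fit without the set.

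The surface receptors for lipoproteins were nearly level between the groups. Tlr2 (chr3:83836272-83841767, minus strand) stood at 168, 150 and 165 CPM in DMSO 1, 2 and 3 and at 161, 145 and 176 CPM in RA 1, 2 and 3. The groups overlapped fully, and its log2 fold change was -0.0054 with an SE of 0.12. Over the 6 libraries Tlr2 varied 1.21-fold from the lowest to the highest, the narrowest range of the 10 members. Tlr1 stood at 187, 142 and 195 CPM in DMSO and at 119, 165 and 196 CPM in RA, in the same order of libraries. Its lowest values were in DMSO 2 and RA 1, both of set 1, and its log2 fold change was -0.13 with an SE of 0.22. Tlr6 stood at 18.8, 15.7 and 18.8 CPM in DMSO and at 15.2, 17.4 and 18.0 CPM in RA, with a log2 fold change of -0.08 and an SE of 0.15. For these 3 genes the edgeR adjusted p was between 0.888 and 0.993, which does not show that the groups were equal.

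Tlr5 (chr1:182954788-182976044, plus strand) was at the edge of detection. It had 16, 24 and 23 counts in DMSO 1, 2 and 3 and 16, 7 and 17 counts in RA 1, 2 and 3, against a limit of 3 counts. The groups touched at 1.16 CPM in RA 3 and 1.12 CPM in DMSO 1. The log2 fold change was -0.67 with an SE of 0.40 (edgeR adjusted p = 0.795), the widest difference of the 10 and the one with the fewest reads behind it. It was -0.37 without RA replicate 2 and -0.97 without RA replicate 3.

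**Figure D2:**
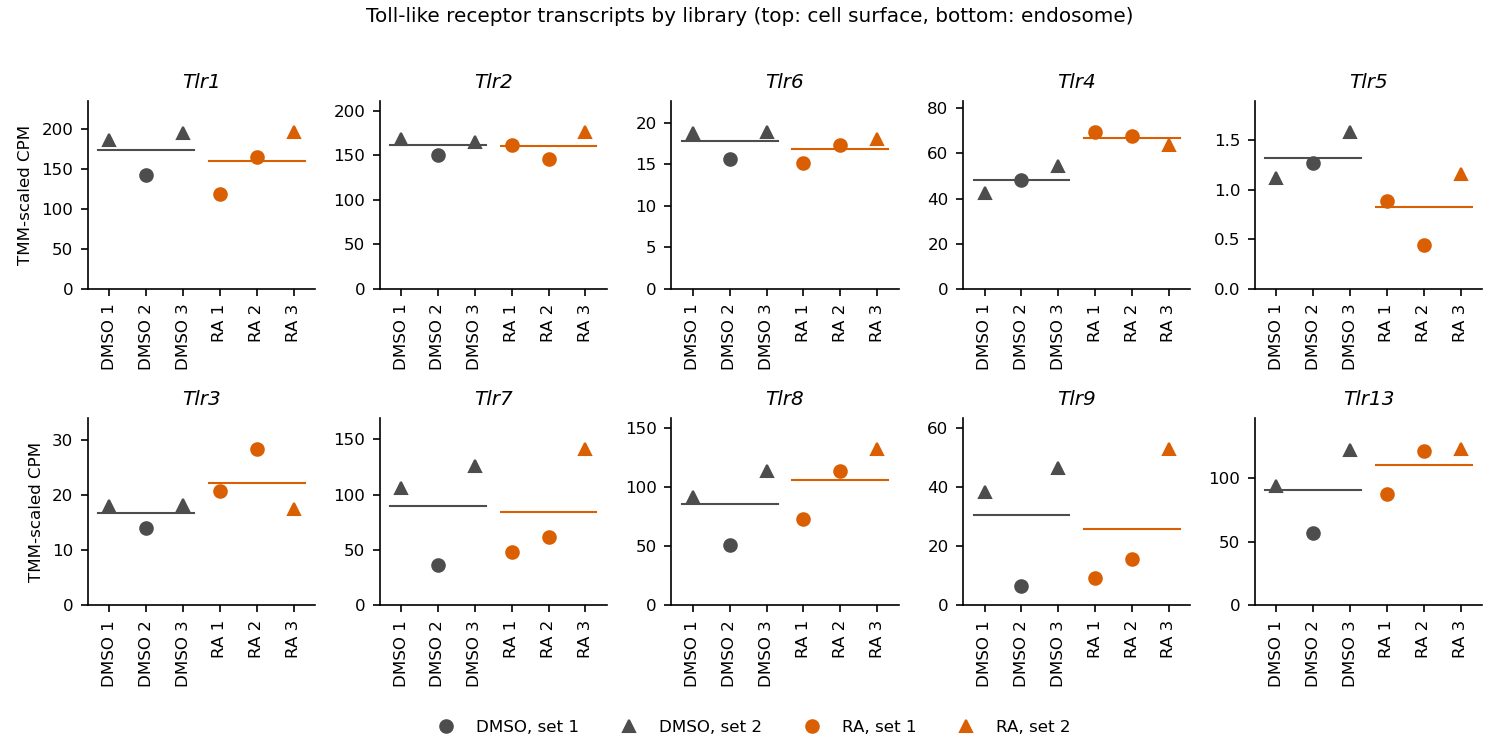
TMM-scaled CPM of each receptor in each library, on an axis that starts at 0 and is scaled per gene, with the group means as lines, the treatment as colour and the library set as marker shape. Only Tlr4 has all RA points above all DMSO points, while Tlr1, Tlr2, Tlr6, Tlr7 and Tlr9 have all set 2 points above all set 1 points.

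Of the endosomal receptors, Tlr9 and Tlr7 were divided by the library set and overlapped between the treatments. Tlr9 (chr9:106222598-106226883, plus strand) had the widest range of all members, 7.85-fold from the lowest to the highest library. It stood at 38.5, 6.75 and 46.4 CPM in DMSO 1, 2 and 3 and at 9.23, 15.8 and 53.0 CPM in RA 1, 2 and 3. The 3 libraries of set 2 were all above those of set 1, at 46.0 ± 7.25 CPM (SD, n = 3) against 10.6 ± 4.67 CPM (SD, n = 3), which is 4.34 times. Against this split the treatment groups overlapped, with a log2 fold change of -0.23 and an SE of 0.84 (edgeR adjusted p = 0.949). Without DMSO replicate 3 that value was 0.20, and without RA replicate 3 it was -1.29.

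Tlr7 (single-stranded RNA) had the same outline. It stood at 106, 37.0 and 126 CPM in DMSO 1, 2 and 3 and at 48.7, 61.8 and 142 CPM in RA 1, 2 and 3. Set 2 was again above set 1 in every library, at 125 ± 17.6 CPM (SD, n = 3) against 49.2 ± 12.4 CPM (SD, n = 3), or 2.53 times. The log2 fold change for RA was -0.09 with an SE of 0.55 (edgeR adjusted p = 0.970), and it ran from -0.70 without RA replicate 3 to 0.23 without DMSO replicate 3. Tlr9 and Tlr7 did not keep a fixed ratio, since Tlr9 per Tlr7 in CPM per kb was 0.425 to 0.439 in set 2 and 0.214 to 0.300 in set 1.

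Tlr8, a further sensor of RNA, and Tlr13 (chrX:106143204-106160493, plus strand), which reads bacterial ribosomal RNA, were less divided. Tlr8 stood at 92.0, 51.1 and 114 CPM in DMSO 1, 2 and 3 and at 72.9, 114 and 132 CPM in RA 1, 2 and 3. Tlr13 stood at 94.1, 56.7 and 122 CPM in DMSO and at 87.2, 122 and 123 CPM in RA, in the same order. For both, DMSO 2 was the lowest library and RA 3 the highest, and both the treatment groups and the sets overlapped. The log2 fold changes were 0.31 with an SE of 0.34 for Tlr8 and 0.28 with an SE of 0.29 for Tlr13, and the edgeR adjusted p-values were 0.833 and 0.822. Without DMSO replicate 2 they fell to 0.06 for Tlr8 and 0.05 for Tlr13, and without DMSO replicate 3 they were 0.57 and 0.55.

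Tlr3 (chr8:45395665-45411080, minus strand) departed from the other endosomal receptors, as its highest library was of set 1. It stood at 18.1, 14.1 and 18.2 CPM in DMSO 1, 2 and 3 and at 20.6, 28.3 and 17.5 CPM in RA 1, 2 and 3. RA 3 lay below DMSO 1 and DMSO 3, so the groups overlapped, and the log2 fold change was 0.40 with an SE of 0.22 (edgeR adjusted p = 0.795). It fell to 0.19 without RA replicate 2 and reached 0.54 without RA replicate 3. The log2 difference was 0.77 within set 1 and -0.05 within set 2. Tlr3 overlaps Gm45542 on the opposite strand, which has no row in the files, and whether the counting used strand is not given in the sources used here.

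The division by set was not particular to these receptors. All 3 libraries of set 2 were above all 3 of set 1 for 5 of the 10 receptors (Tlr1, Tlr2, Tlr6, Tlr7 and Tlr9), against 24.4% of all genes tested, and below them for 0 of the 10, against 23.4% of all genes. In size, Tlr1, Tlr2 and Tlr6 differed by 1.36, 1.11 and 1.15 times. Macrophage markers moved the same way, since set 2 was above set 1 in every library for 11 of the 14 and below it for 2, with a median log2 difference of set 1 minus set 2 of -0.44, beside -0.43 for the receptors and -0.01 for all genes. Among them Mrc1 differed by -1.35 and Mertk by -0.92 on that log2 scale, while Lyz2 differed by 0.60 and Fcgr1 by 0.62 in the other direction. Of the 10 stromal markers tested, 4 were higher in every library of set 1 and 0 in set 2, beside the same 23.4% and 24.4% of all genes. The part of cell makeup in the receptors' levels was not tested.

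With the sets taken into account, Tlr7, Tlr8, Tlr9 and Tlr13 had positive log2 differences in both sets, while those of Tlr3 differed in sign between the sets. Within each set, every RA library was above every DMSO library for 5 receptors (Tlr4, Tlr7, Tlr8, Tlr9 and Tlr13), against 18.5% of all genes, and below for 0 receptors, against 23.5% of all genes. This count was made after the values had been seen, and set 1 holds 1 DMSO library while set 2 holds 1 RA library, so each such order rests on 4 pairs of libraries. The log2 differences within set 1 were 0.57 for Tlr7, 0.83 for Tlr8, 0.83 for Tlr9 and 0.86 for Tlr13. Those within set 2 were smaller, at 0.29, 0.37, 0.33 and 0.20 in the same order. DMSO 2, the lowest library for all 4 genes, is the only control of set 1.

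In the edgeR fit with the set as a covariate, 0 of 10 receptors were called, against 1.54% of all genes. At an unadjusted p under 0.05 by the same fit 5 receptors passed, the same 5 genes as above, against 15.1% of all genes. That count was 1 without DMSO replicate 2, against 5.49% of all genes, and 2 without DMSO replicate 1, against 9.27%. It was 5 or 6 when any other library was left out, against 12.4% to 20.3% of all genes. The log2 fold changes were 0.43 ± 0.13 (SE) for Tlr7, 0.61 ± 0.20 (SE) for Tlr8, 0.57 ± 0.23 (SE) for Tlr9 and 0.53 ± 0.21 (SE) for Tlr13, with edgeR adjusted p-values from 0.212 to 0.315. The sign for Tlr7 and Tlr9 was thus opposite to that without the set. Leaving out 1 library at a time, they were lowest without DMSO replicate 2, at 0.30 for Tlr7, 0.38 for Tlr8, 0.33 for Tlr9 and 0.20 for Tlr13. They were highest without RA replicate 3, at 0.58, 0.87, 0.88 and 0.88 in the same order. Without RA replicate 2 the edgeR adjusted p was 0.0285 for Tlr4, 0.0492 for Tlr7 and 0.0262 for Tlr8, with log2 fold changes of 0.45, 0.33 and 0.43 that all stayed below the 1.5-fold threshold. Without DMSO replicate 1 the edgeR adjusted p was 0.374, 0.538 and 0.560 in the same order, and without DMSO replicate 2 it was 0.847 for Tlr4 and 0.9999 for both Tlr7 and Tlr8.

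**Figure D3:**
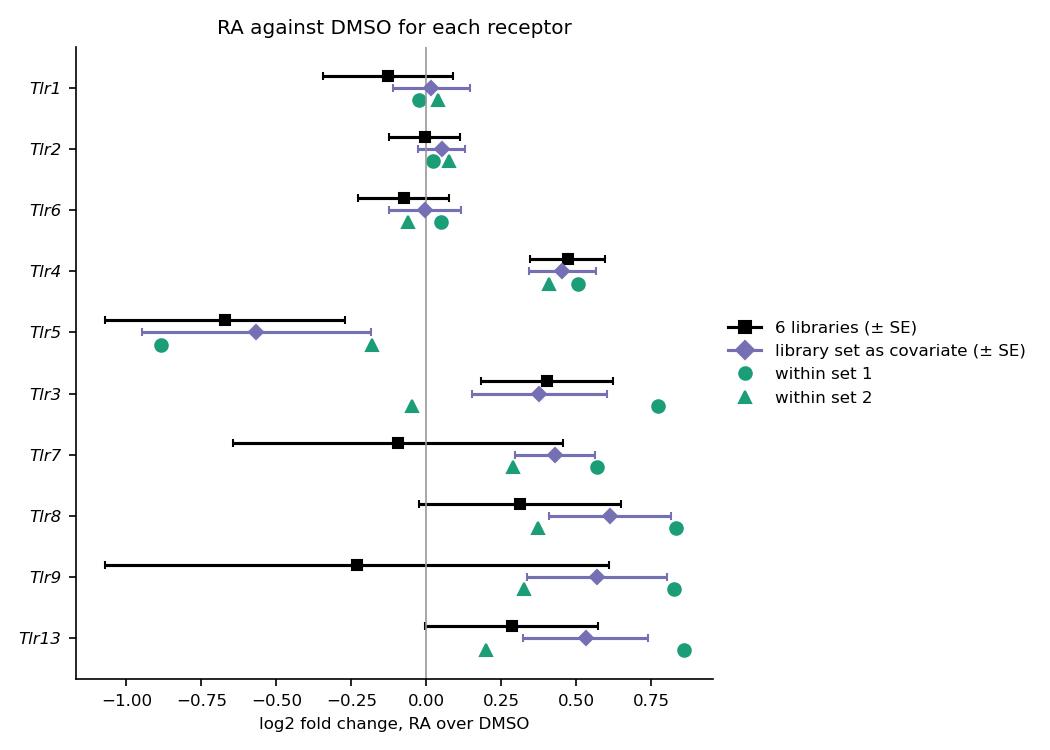
log2 fold change of RA over DMSO for each receptor, from the edgeR fit to the 6 libraries (black, ± SE), from the fit that has the set as a term (purple, ± SE) and as the difference within each set (green). Tlr4 lies between 0.41 and 0.51 in all of them, and Tlr7 and Tlr9 move from -0.09 and -0.23 to 0.43 and 0.57 once the set is a term.

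Summed by branch, the receptors divided by set and overlapped between the treatments. Surface receptors together held 105 to 133 CPM per kb in the 6 libraries, with means of 119 ± 12.1 in DMSO (SD, n = 3) and 118 ± 14.3 in RA (SD, n = 3). Every library of set 2 was above those of set 1, at 129 ± 4.46 against 109 ± 5.16 CPM per kb (SD, n = 3 each). Endosomal receptors held 41.1 to 119 CPM per kb, with means of 79.0 ± 34.2 in DMSO (SD, n = 3) and 87.7 ± 29.9 in RA (SD, n = 3). They too were higher in every library of set 2, at 105 ± 15.5 against 61.8 ± 22.1 CPM per kb (SD, n = 3 each), although the nearest libraries, RA 2 at 85.0 and DMSO 1 at 88.1 CPM per kb, were close. Their share of the whole receptor level was lowest in DMSO 2, at 28.0%, and highest in RA 3, at 47.1%, and both the treatment groups and the sets overlapped in this share.

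The promoters of the members were read from RefSeq (GRCm38.p6), each as a window from 250 bases before to 50 bases after a start of the gene. The table held 10 windows of 8 members, and none for Tlr4 or Tlr7. The searched letters, on both strands, were AGGTCA, the half-site of nuclear receptors such as the RA receptors, as direct repeats with 1, 2 or 5 bases between (AGGTCANAGGTCA, AGGTCANNAGGTCA and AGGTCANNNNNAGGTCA), GAGGAA, the core letters of sites for the macrophage factor PU.1, and TATAAA. No member window held a direct repeat, which was also rare in the table, at 0.0396%, 0.00913% and 0.00913% of its 32851 windows. A single half-site was found in 3 of the 10 member windows (Tlr2, Tlr5 and Tlr9), against 16.3% of all windows. GAGGAA was found in 4 of the 10, those of Tlr8, Tlr9 and Tlr13 and 1 of the windows of Tlr1, against 28.3% of all windows. TATAAA was found in 2 of the 10 (Tlr8 and 1 of the windows of Tlr6), against 13.6% of all windows. A match is a description of letters and not of a bound site.

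Windows are shown 5′ to 3′ on the strand of the gene for Tlr9, Tlr8 and Tlr13, which with Tlr7 are the endosomal members whose RA libraries were above the DMSO libraries in both sets, and for Tlr2, the member that varied least. Capitals mark GAGGAA and AGGTCA or their reverse complements.
Tlr9, chr9:106222348-106222647, plus strand: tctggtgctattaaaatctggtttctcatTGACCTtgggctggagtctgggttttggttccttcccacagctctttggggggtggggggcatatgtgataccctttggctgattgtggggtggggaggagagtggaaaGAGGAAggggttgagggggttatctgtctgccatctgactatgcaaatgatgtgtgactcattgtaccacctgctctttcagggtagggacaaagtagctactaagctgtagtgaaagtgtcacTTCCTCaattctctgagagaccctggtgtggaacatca
Tlr8, chrX:167264280-167264579, minus strand: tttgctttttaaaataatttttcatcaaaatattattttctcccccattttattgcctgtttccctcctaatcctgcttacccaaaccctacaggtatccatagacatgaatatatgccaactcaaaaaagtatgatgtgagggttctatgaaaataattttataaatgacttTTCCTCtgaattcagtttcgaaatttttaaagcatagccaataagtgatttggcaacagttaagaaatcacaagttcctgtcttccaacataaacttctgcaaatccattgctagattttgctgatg
Tlr13, chrX:106143025-106143324, plus strand: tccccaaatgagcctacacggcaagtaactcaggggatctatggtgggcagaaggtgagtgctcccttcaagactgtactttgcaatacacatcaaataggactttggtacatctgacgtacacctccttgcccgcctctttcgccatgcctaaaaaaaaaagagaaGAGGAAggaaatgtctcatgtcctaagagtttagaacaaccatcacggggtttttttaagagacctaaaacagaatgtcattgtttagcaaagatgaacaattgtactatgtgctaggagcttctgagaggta
Tlr2, chr3:83841559-83841858, minus strand: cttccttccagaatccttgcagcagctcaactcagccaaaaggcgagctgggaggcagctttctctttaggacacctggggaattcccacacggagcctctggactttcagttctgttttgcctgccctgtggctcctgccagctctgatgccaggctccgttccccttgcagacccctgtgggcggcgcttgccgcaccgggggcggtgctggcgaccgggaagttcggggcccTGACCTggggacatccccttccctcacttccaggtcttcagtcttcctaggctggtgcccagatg
In the Tlr9 window GAGGAA began 112 bases before the start on the strand of the gene and 13 bases into the transcript on the other, and the half-site 221 bases before the start. In the Tlr13 window GAGGAA began 83 bases before the start, and in the Tlr8 window 77 bases before it, on the other strand. The Tlr2 window held none, and its half-site began 15 bases before the start. It was also the richest in G and C, at 62.0%, beside 49.7% for Tlr9, 43.3% for Tlr13 and 32.3% for Tlr8.

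The rest of the pathway was read through 8 lists of 75 genes, of which 69 were tested. No list gene was called by edgeR in either direction, and 8 had an unadjusted p under 0.05, against 5.25% of all genes. The RA libraries were all above the DMSO libraries for 9 of the 69, against 5.71% of all genes, and all below for 6, against 6.87% of all genes. The medians of the lists are of log2 fold changes, beside the -0.02 of all genes tested.

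Coreceptors and accessory proteins had the highest median, at 0.46 over 6 genes, and 3 of the 6 had all RA libraries above all DMSO libraries, against 5.71% of all genes. Cd36, a scavenger receptor that presents lipids to Tlr2 and its partners, stood at 626, 526 and 680 CPM in DMSO 1, 2 and 3 and at 872, 909 and 829 CPM in RA 1, 2 and 3. The groups were apart, with a log2 fold change of 0.51 and an SE of 0.14 (edgeR adjusted p = 0.638). Lbp, the serum protein that hands lipopolysaccharide to Cd14, was low, at 1.89 to 3.24 CPM in DMSO and 4.16 to 6.40 CPM in RA, with a log2 fold change of 1.01 and an SE of 0.29 (edgeR adjusted p = 0.660). Cd180, a receptor-like relative of Tlr4, had a log2 fold change of 0.41 with an SE of 0.20, and RA 2 stood highest at 353 CPM. Of the direct partners of Tlr4, Cd14 stood at 359 ± 60.0 CPM in DMSO (SD, n = 3) and 345 ± 41.3 CPM in RA (SD, n = 3), and Ly96, which forms the binding pocket with Tlr4, at 4.80 ± 0.889 and 7.33 ± 3.04 CPM (SD, n = 3 each). Both overlapped between the groups. RA 2 was the highest library of Ly96, at 10.8 CPM, and the lowest of Cd14, at 302 CPM. How far the median of the list rests on RA 2 was not tested.

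The 15 genes for chaperones, trafficking and endolysosomal processing, which carry the endosomal receptors to their compartment and prepare their ligands, had a median of -0.07, which turned to 0.08 with the set as a covariate. In 9 of the 15 all libraries of set 2 were above those of set 1, against 24.4% of all genes, and in 2 they were below, against 23.4%. Unc93b1, the chaperone of the endosomal receptors, was among the 9, at 1231, 674 and 1205 CPM in DMSO 1, 2 and 3 and 662, 708 and 1239 CPM in RA 1, 2 and 3. Only Rnaset2b, an RNase that releases ligands for RNA sensors, had the treatment groups apart, at 65.8 to 73.6 CPM in DMSO and 98.7 to 199 CPM in RA, with a log2 fold change of 0.98 and an SE of 0.26 (edgeR adjusted p = 0.602). It has a close copy, Rnaset2a, whose lowest library, RA 2 at 77.8 CPM, was the highest of Rnaset2b. How reads were divided between the copies was not tested.

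Among the adaptors (5 genes, median -0.10, or -0.015 with the set as a covariate), Myd88 was lower in every RA library than in every DMSO library, at 103 ± 4.82 CPM in DMSO and 90.5 ± 3.27 CPM in RA (SD, n = 3 each). Its log2 fold change was -0.19 with an SE of 0.10 (edgeR adjusted p = 0.795). Among 16 kinases and ubiquitin ligases (median -0.02, or 0.05 with the set as a covariate), Ikbke, a kinase of the interferon branch, stood at 336 ± 14.8 CPM in DMSO and 447 ± 16.1 CPM in RA (SD, n = 3 each), with the groups apart and a log2 fold change of 0.41 (edgeR adjusted p = 0.602). Map3k7, the kinase that joins the receptors to NF-kB, was the other gene of that list with all RA libraries above, at a log2 fold change of 0.21. With the set as a covariate the edgeR adjusted p of Ikbke was 0.0324 at a log2 fold change of 0.44, which is below the 1.5-fold threshold.

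Of 5 interferon regulatory factors (median -0.12, or 0.11 with the set as a covariate), Irf3 was lower in every RA library, with a log2 fold change of -0.33 and an SE of 0.12, and Irf5 higher in every RA library, with 0.29 and an SE of 0.12. The edgeR adjusted p was 0.795 for both. The 9 tested inhibitors had a median of -0.18, with 4 genes below DMSO in every RA library and 1 above, against 6.87% and 5.71% of all genes. Zc3h12a, an RNase that degrades inflammatory mRNAs, differed most, at 149 ± 18.9 CPM in DMSO and 106 ± 13.2 CPM in RA (SD, n = 3 each), a log2 fold change of -0.49 (edgeR adjusted p = 0.746). Inpp5d and Tnip1, which limit signals at the membrane and at NF-kB, had log2 fold changes of -0.25 and -0.23, and Irak3, the inactive kinase of the family, was above DMSO in every RA library at 0.29.

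The 13 tested response genes, which the receptors induce when they are engaged, had the lowest median, at -0.27. DMSO 2 was the highest control for Tnf, Nfkbia, Cxcl1, Cxcl2, Cxcl10, Ptgs2, Il6, Ccl3 and Ccl4. It was the lowest control for Il10, Il1b, Ifit1 and Nfkbiz. Tnf stood at 98.1, 195 and 92.2 CPM in DMSO 1, 2 and 3 and at 118, 120 and 81.7 CPM in RA 1, 2 and 3. How far the median rests on DMSO 2 was not tested. Only Ccl3 had the treatment groups apart, at 84.4 ± 9.80 CPM in DMSO and 112 ± 19.0 CPM in RA (SD, n = 3 each), with a log2 fold change of 0.41 (edgeR adjusted p = 0.795). In 8 of the 13 all libraries of set 1 were above those of set 2, against 23.4% of all genes, and in 3 below, against 24.4%. Il6, an inflammatory cytokine, stood at 0.700, 11.6 and 0.619 CPM in DMSO 1, 2 and 3 and at 2.39, 2.73 and 0.136 CPM in RA 1, 2 and 3, so DMSO 2 was far above the rest. It was the 1 list gene called with the set as a covariate, where it fell by 2.19 on the log2 scale with an SE of 0.23 (edgeR adjusted p = 0.0064). A count of 1 of the 69 list genes is close to the 1.54% of all genes called in that fit. Without DMSO replicate 2 the log2 fold change was almost the same, at -2.20, but its SE rose to 0.75 and the call was lost (edgeR adjusted p = 0.666). Without DMSO replicate 1 it was -2.18, with an edgeR adjusted p of 0.0530. Its lowest level, in RA 3, was below the limit that a count of 0 allows in that library, 0.205 CPM.

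**Figure D4:**
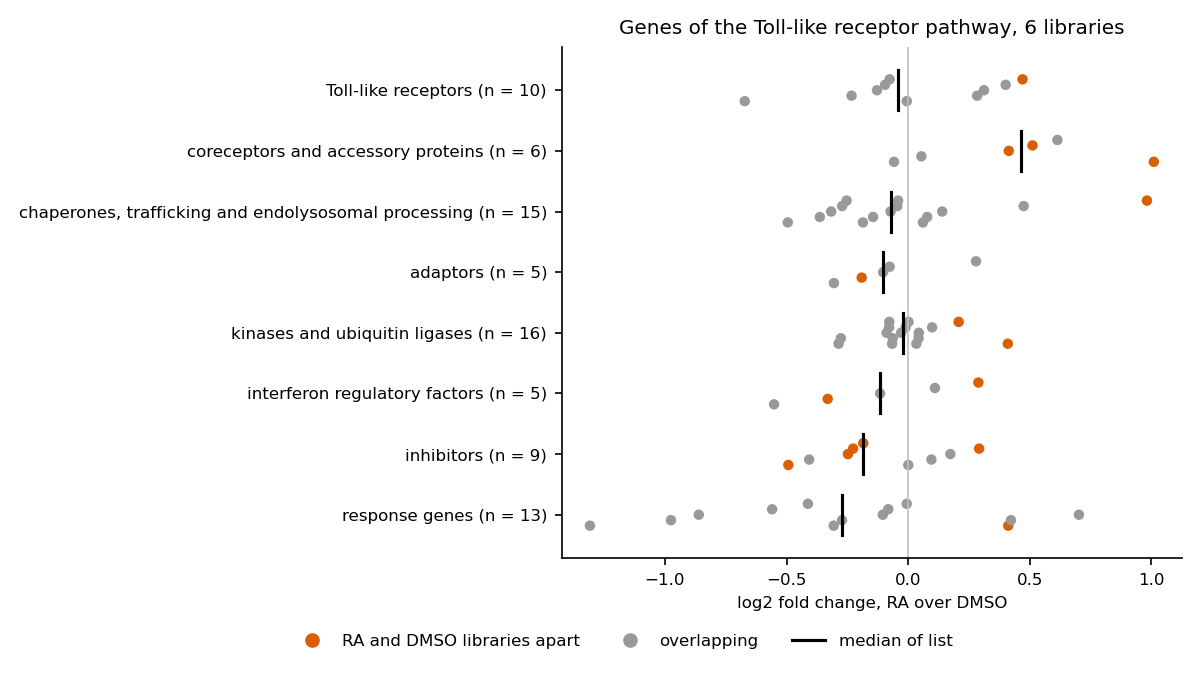
log2 fold change of RA over DMSO for each tested gene of the receptors and of the 7 pathway lists with tested genes, with the list's median as a black line and genes whose RA and DMSO libraries did not overlap in orange. Coreceptors and accessory proteins have the highest median, 0.46, and response genes the lowest, -0.27, over all 6 libraries. How far these medians rest on a single library was not tested.

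The genes with a profile most like those of Tlr9 and Tlr7, the members with the widest ranges, were sought by the root mean square difference (RMS) between log2 CPM profiles centred on each gene's own mean, over the 6 libraries. For Tlr9 they were Rragd, a GTPase of the lysosomal nutrient sensor, at an RMS of 0.15, Abcg3 at 0.17 and Gpr155 at 0.18. Rragd stood at 13.8, 2.66 and 15.5 CPM in DMSO 1, 2 and 3 and at 3.78, 4.82 and 20.7 CPM in RA 1, 2 and 3, so it had the same low set 1 libraries as Tlr9. For Tlr7 they were Gm15674 at 0.07, Ptafr, the receptor for platelet-activating factor, at 0.07, and Dnajb13 at 0.09. Ptafr stood at 82.6, 26.6 and 90.0 CPM in DMSO and 38.5, 45.0 and 115 CPM in RA, in the same order. Tlr7 itself ranked 119th of the tested genes in likeness to Tlr9, with an RMS of 0.44, and of the other members Tlr8 came next at 0.81. By the largest absolute difference in place of the RMS, 2 of the 3 genes were the same for each receptor.

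**Figure D5:**
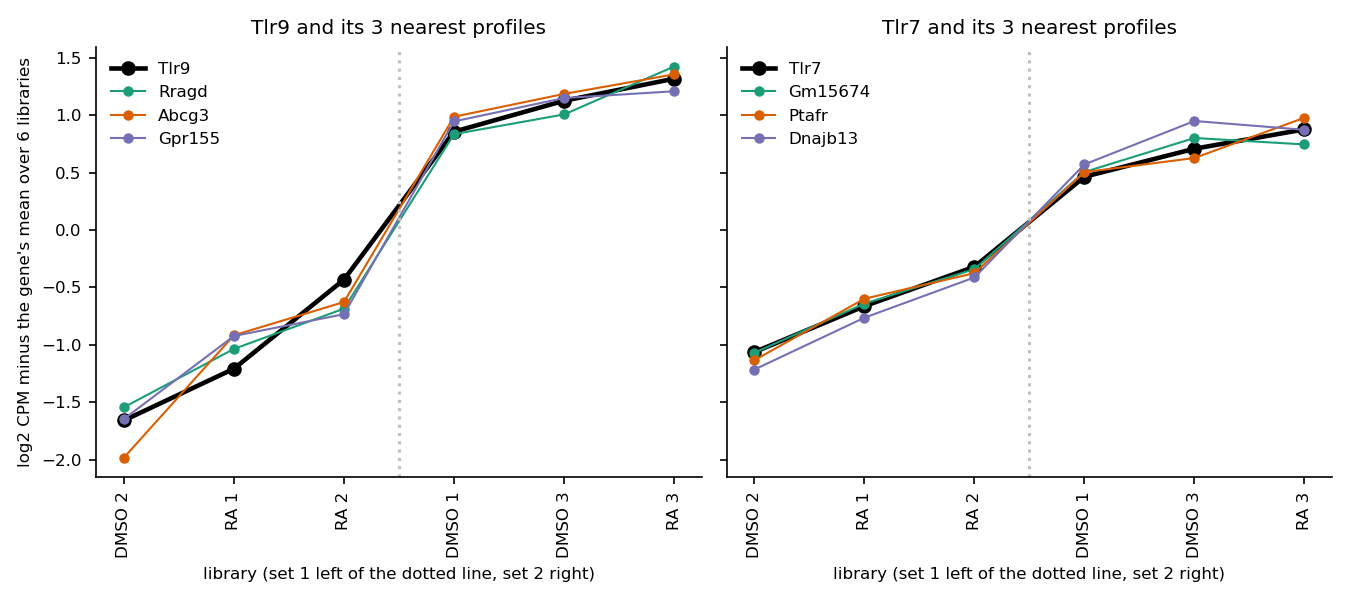
log2 CPM minus the gene's mean over the 6 libraries for Tlr9 (left) and Tlr7 (right) in black and their 3 nearest genes in colour, with set 1 libraries left and set 2 libraries right of the dotted line. Each profile is lowest in DMSO 2, and all 3 libraries of set 2 lie above zero.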

How the data were processed

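RNA was sequenced from 3 DMSO and 3 RA libraries of mouse BMSCs. The deposited values are raw counts of reads per gene that the authors made, with Bowtie2 2.2.3 and the mm10 genome (GRCm38) named in the submitters' processing notes. The counting program, the annotation and the use of strand are not given in the sources used here. Groups were taken from the labels. The members, the lists and the library sets were chosen with earlier results of these data known.

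Counts of all 25722 genes were filtered with filterByExpr, which left 13842, scaled by TMM and tested with edgeR 4.0.16 (quasi-likelihood, R 4.3.3), with Benjamini-Hochberg adjustment over all genes tested. A call needed an adjusted p under 0.05 and 1.5-fold. The SE was taken as the fold change divided by the square root of F. Log2 CPM used a prior count of 2. DESeq2 1.42.0, other scalings, filters and blocks were alternatives. The test was checked on simulated counts with the same spread for every gene and no library sets, so the check does not cover that split. Gene positions and lengths came from GENCODE M21, promoters from RefSeq.

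Named genes were all members, list genes called or with the 3 RA libraries on one side of the 3 DMSO libraries (at most 4 a list, by size of change), the highest and lowest marker of each list, and the 3 genes nearest in profile to the 2 members of widest range. Others named (Cd14, Ly96, Unc93b1, Rnaset2a, Il6, Ly86, Pld4, Cxcl1, Ctsk, Ptgs2, Tcf4, Cd8a, Mrc1, Fcgr1) were chosen after their values were seen. So were Col1a2, Cxcl12, Cd44, Pdgfra, Pdgfrb, Eng, Vcam1, Ly6a, Lepr, Nt5e, Tnf, Nfkbia, Cxcl2, Cxcl10, Ccl4, Il10, Il1b, Ifit1 and Nfkbiz. Depth was 14737636 to 18511905 counts per library, where 3 counts equal 0.160 to 0.210 CPM, and such limits cover counting error only. No 2 libraries of a group differed by as little as sampling noise, since chi-square per degree of freedom was at least 4.56. That value was of DMSO 1 and DMSO 3, which were far closer than the other pairs, at 28.0 to 83.1.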

Additional observations from a re-analysis of the deposited data

How the results depend on the processing

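No receptor was called in any setting tried, and the directions of Tlr4, Tlr5, Tlr8 and Tlr13 held in each setting in which they were tested, which for Tlr5 leaves out the filter of at least 10 counts in every library. Between DMSO and RA, the deviations correlated at -0.51 for replicate number 1, 0.34 for number 2 and 0.57 for number 3. The libraries numbered 2 shared set 1 and those numbered 3 shared set 2, while those numbered 1 were of different sets. Pairing by number was therefore mixed with the sets, and pairing apart from them was not tested. With the number as a replicate block 0 receptors and, of all genes, 4 higher and 0 lower were called. Of all genes, 5 higher and 1 lower were called. The likelihood ratio test gave 93 and 41, DESeq2 98 and 38, no filter 17 and 3, an unadjusted p with the fold threshold 295 and 196, and the library set as a covariate 103 and 110, while library size alone left 0 lower. Leaving out 1 library gave 0 to 6 higher and 0 lower without the set, and, chosen after seeing the data, 21 to 197 higher and 15 to 223 lower with it. Of the pathway lists, an unadjusted p with the fold threshold gave 2 higher genes and the covariate fit 1 lower gene, which became 0 to 3 higher and 0 to 4 lower as libraries were left out. Without RA replicate 2 the list genes called were Ly86, Pld4 and Rnaset2b higher and Cxcl1, Ctsk, Il6 and Ptgs2 lower. The log2 fold change of Tlr2 turned from -0.0054 to 0.0029 with DESeq2, 0.0028 with RLE factors, 0.038 with library size alone, 0.017 with upper quartile scaling, 0.0036 with at least 10 counts in every library and 0.051 with the set. With the set Tlr1 turned to 0.017, Tlr7 to 0.43 and Tlr9 to 0.57. As libraries were left out, it ran from -0.30 to 0.071 for Tlr1, -0.075 to 0.062 for Tlr2, -0.14 to 0.017 for Tlr6, -0.70 to 0.23 for Tlr7 and -1.29 to 0.20 for Tlr9. With the set as a covariate it ran from -0.088 to 0.14 for Tlr1, -0.056 to 0.051 for Tlr6 and -0.038 to 0.79 for Tlr3. The cause of these turns was not tested. Tlr4 moved from 10.4 to 14.1 CPM per kb with the longest transcript as its length, and Tlr1 then passed Tlr2. Tlr5 rested on 7 to 24 counts per library, and the SEs without the set were largest for Tlr9, at 0.84, and Tlr7, at 0.55.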
